A study of Mus musculus with 9 samples.

Results

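The CC chemokines are small secreted proteins named for a pair of neighbouring cysteines, and 10 of their genes were followed here across every library of the study. The members were Ccl2, Ccl3, Ccl4, Ccl5, Ccl6, Ccl7, Ccl8, Ccl9, Ccl11 and Ccl20, found by their gene name in both deposited tables, 10 of 55414 listed genes. RNA was sequenced from cells of the mouse lung alveolus collected by laser capture microdissection, which cuts selected cells out of a tissue slice. By the labels these were mostly fibroblasts of wild type C57BL/6J males. PDK4-IN mice aged without intervention to 20 months and then received PDK4-IN, an anthraquinone-derived inhibitor of pyruvate dehydrogenase kinase 4, once every 2 weeks for 4 months, with examination at 24 months. Aged mice followed the same schedule with vehicle, and Young mice are labelled only as young, with no age given. Each group had 3 libraries. The deposited sheets carry names that speak of bleomycin and PCC1, the second an agent the study gave to other aged mice, whereas their columns and the labels read Young, Aged and PDK4-IN, which were followed. Captured cells were combined before RNA extraction and no label names the animal behind a library, so the p-values measure the spread between libraries, which may be technical.

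Chemokines bind receptors that couple to G proteins, and leukocytes move up the resulting gradient. In lung, Ccl2 and Ccl7 draw monocytes through the receptor Ccr2, Ccl3 and Ccl5 act on myeloid cells through Ccr1, Ccl11 draws eosinophils through Ccr3, and Ccl20 draws lymphocytes and immature dendritic cells through Ccr6. Fibroblasts are a known source of Ccl2, Ccl7 and Ccl11, whereas Ccl3, Ccl4, Ccl6 and Ccl9 are best known from macrophages and other myeloid cells.

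Library totals ran from 19456354 to 26660419 counts, and 22715 to 26297 genes had a count. Levels are given as CPM, counts scaled to the library total, and a floor of 3 counts over a group was 0.0503 CPM in PDK4-IN, 0.0425 CPM in Aged and 0.0493 CPM in Young. The fibroblast label was checked on its markers. Col1a1, the chain of type I collagen, was at 2712 ± 137 CPM in PDK4-IN, 2256 ± 18.8 CPM in Aged and 3091 ± 131 CPM in Young (SD, n = 3 each). Tcf21, a transcription factor of lung fibroblasts, was scarce in every group. It was at 0.0989 to 0.256 CPM in PDK4-IN and 0.325 to 0.514 CPM in Young, and had no count in Aged. Sftpc of type 2 cells and Ager of type 1 cells averaged under 1 CPM in every group, but their lists were not empty. Of 8 type 1 markers, 7 reached 1 CPM in each group. The type 1 list summed to 801 ± 6.31 CPM in PDK4-IN, 739 ± 5.46 CPM in Aged and 865 ± 8.13 CPM in Young. Its markers were uneven. Cav1 alone was at 328, 316 and 535 CPM in PDK4-IN, Aged and Young, and Hopx at 1.45, 1.66 and 1.38 CPM. Of 8 type 2 markers, 1 reached 1 CPM, Abca3. That list summed to 59.2 ± 6.39, 77.0 ± 2.74 and 68.2 ± 7.23 CPM in PDK4-IN, Aged and Young. Sftpa1 of type 2 cells and Cldn5 of endothelium had no count in PDK4-IN or Young, and Scgb3a2 of airway epithelium had none in any group. Macrophage and monocyte markers, 20 genes, summed to 176 ± 10.9 CPM in PDK4-IN, 5805 ± 34.0 CPM in Aged and 51.0 ± 5.16 CPM in Young, and 13, 17 and 5 of them reached 1 CPM in these groups. C1qc was the marker of that list with no count in Young. Pdk4 itself, whose product the compound inhibits, was at 60.2 ± 3.48 CPM in PDK4-IN, 75.4 ± 4.08 CPM in Aged and 25.4 ± 1.74 CPM in Young.

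All 10 members passed the filter on low counts in each comparison. Between Aged and Young, 6 members were called higher and 1 lower, where 21.4% and 19% of 16123 tested genes were called in these directions. Between PDK4-IN and Aged, 6 members were called lower and 4 higher, against 25.7% and 23.9% of 16275 tested genes. Between PDK4-IN and Young, 8 were called higher and 2 lower, against 13.3% and 15.7% of 16553 tested genes. Of the 8, Ccl3, Ccl4 and Ccl6 had no Young library at the count cutoff of the filter, and the other 7 members reached it in all libraries of both groups. A call is an adjusted p under 0.05 in edgeR's quasi-likelihood test with Benjamini-Hochberg adjustment over all tested genes. The median log2 fold change of the members was 0.90 for Aged over Young, -1.47 for PDK4-IN over Aged and 0.91 for PDK4-IN over Young, beside 0.01, -0.00088 and 0.02 over all tested genes. Aged over Young and PDK4-IN over Aged both use the Aged libraries, so their values are set side by side below and not related to each other.

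**Figure D1:**
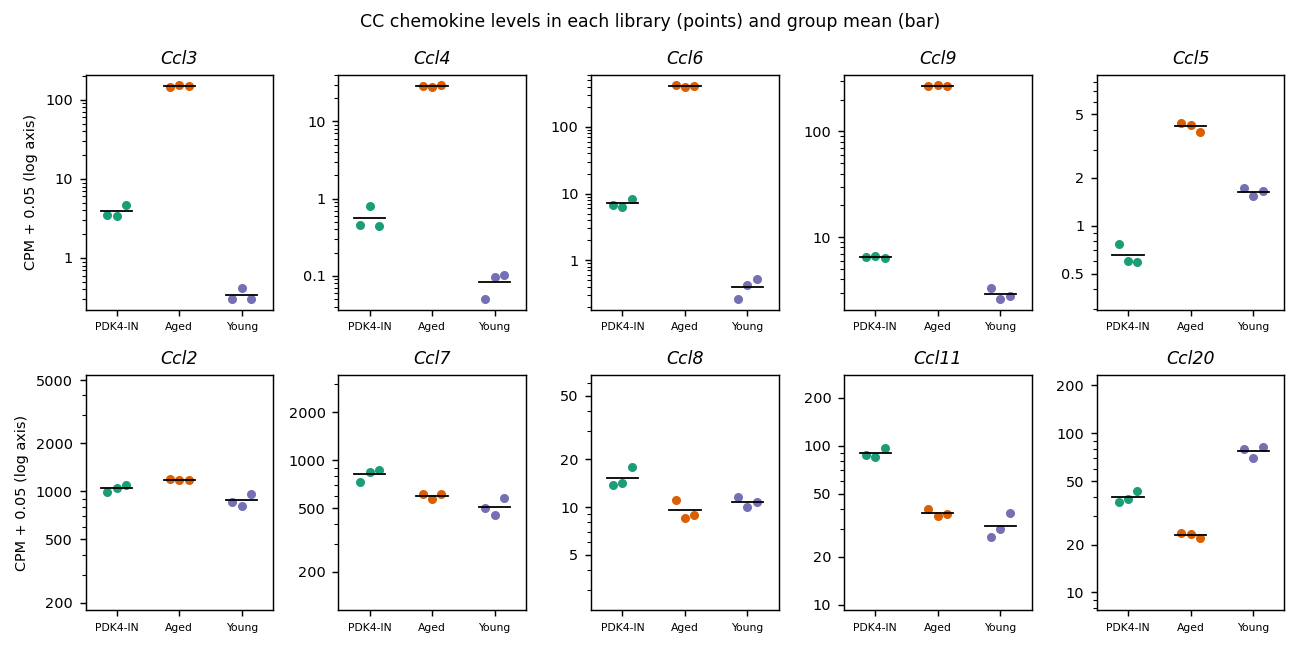
Level of each CC chemokine (CPM plus 0.05, log axis, a separate scale in each panel) in every library, with PDK4-IN, Aged and Young from left to right; points are libraries and bars are means of 3. Ccl3, Ccl4, Ccl6 and Ccl9 stood highest in Aged, Ccl5 lowest in PDK4-IN, Ccl7, Ccl8 and Ccl11 highest in PDK4-IN, and Ccl20 highest in Young.

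Ccl3, Ccl4, Ccl6 and Ccl9 shared 1 pattern: lowest in Young, far higher in Aged, and low but above Young in PDK4-IN. Ccl3, macrophage inflammatory protein 1 alpha, was at 3.48, 3.37 and 4.65 CPM in the PDK4-IN libraries, against 146, 153 and 151 CPM in the Aged libraries and 0.252, 0.371 and 0.257 CPM in the Young libraries. The groups did not overlap. Its log2 fold change was -5.28 for PDK4-IN over Aged (SE 0.10, adjusted p = 5.8e-12), 8.94 for Aged over Young (SE 0.11, adjusted p = 2.3e-12) and 3.64 for PDK4-IN over Young (SE 0.23, adjusted p = 6.0e-07).

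Ccl4, macrophage inflammatory protein 1 beta, was at 0.409, 0.753 and 0.395 CPM in PDK4-IN, against 29.0, 27.9 and 29.4 CPM in Aged and 0, 0.0464 and 0.0514 CPM in Young. The Young group held 2 counts in all, so the ratio of Aged to Young was 874 with a counting interval of 242 to 7218, and that of PDK4-IN to Young 15.8 with an interval of 4.02 to 136. These intervals, at a confidence level of 95%, cover counting error only. Between PDK4-IN and Aged, the fitted log2 fold change of Ccl4 was -5.77 with SE 0.16 (adjusted p = 1.3e-10).

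Ccl6 is a rodent chemokine of macrophages that binds Ccr1. It was at 6.70, 6.33 and 8.25 CPM in PDK4-IN, against 424, 396 and 415 CPM in Aged and 0.209, 0.371 and 0.463 CPM in Young. No other member differed as far between Aged and Young in the fit, at 10.18 on the log2 scale with SE 0.12 (adjusted p = 2.3e-12), and it was 57.6-fold lower in PDK4-IN than in Aged (-5.85 as log2 fold change with SE 0.09, adjusted p = 1.0e-12). It remained above Young in the PDK4-IN libraries, with a log2 fold change of 4.31 and SE 0.21 (adjusted p = 7.5e-08).

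Ccl9, which also binds Ccr1 and lies beside Ccl6, had a higher base level. It was at 6.45, 6.63 and 6.38 CPM in PDK4-IN, against 268, 274 and 268 CPM in Aged and 3.23, 2.55 and 2.72 CPM in Young. The log2 fold change was -5.37 for PDK4-IN over Aged (SE 0.06, adjusted p = 2.6e-13), 6.56 for Aged over Young (SE 0.08, adjusted p = 2.3e-12) and 1.16 for PDK4-IN over Young (SE 0.10, adjusted p = 5.9e-06). Ccl3, Ccl4 and Ccl6 were under the count cutoff of the filter in all 3 Young libraries, so between Aged and Young they were tested only through their Aged level and had to differ. Between PDK4-IN and Young, Ccl3 and Ccl6 likewise passed without any Young library. The filter there used all 9 libraries, and for both genes all 3 Aged and all 3 PDK4-IN libraries reached the cutoff. Their calls of higher in PDK4-IN thus rest on Young levels under the cutoff. Ccl4, with 1 of 3 PDK4-IN libraries at the cutoff, passed through its Aged level in every comparison.

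These 4 genes moved with the macrophage markers, and markers of other leukocytes were also highest in Aged. The summed markers were 32.9 times lower in PDK4-IN than in Aged, and Adgre1, the gene of the macrophage receptor F4/80, was at 7.67 ± 0.159 CPM in PDK4-IN, 504 ± 7.07 CPM in Aged and 0.350 ± 0.187 CPM in Young (SD, n = 3 each). In such bulk RNA, fewer cells of a type and less RNA per cell cannot be told apart. Divided by the summed markers of the same library, the ratio of PDK4-IN to Aged was 0.840 ± 0.145 for Ccl3, 0.792 ± 0.0488 for Ccl9, 0.590 ± 0.207 for Ccl4 and 0.567 ± 0.0814 for Ccl6. The summed markers of neutrophils were at 71.4 ± 9.65 CPM in PDK4-IN, 146 ± 3.78 CPM in Aged and 11.3 ± 0.885 CPM in Young, those of B cells at 5.67 ± 2.29 CPM in PDK4-IN, 54.7 ± 2.13 CPM in Aged and 2.75 ± 0.676 CPM in Young, and those of dendritic cells at 3.49 ± 0.751 CPM in PDK4-IN, 20.9 ± 0.919 CPM in Aged and 2.78 ± 0.617 CPM in Young. The direction of the ratios to macrophage markers depended on the marker: divided by Adgre1 alone the ratios were 1.68, 1.58, 1.18 and 1.13, and divided by Csf1r alone, the receptor for macrophage colony stimulating factor, 0.450, 0.420, 0.311 and 0.303. The part of macrophage RNA in these changes was not tested beyond these ratios, and that of the other leukocytes was not tested.

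The promoters of 5 of the 10 members had an entry in the RefSeq table, build GRCm38.p6, an older build than the one named for the deposited tables. They are shown because Ccl3, Ccl6 and Ccl9 moved together while Ccl20 and Ccl8 did not follow them, each as the 250 bases before the start of transcription, 5′ to 3′ on the gene's strand. Capitals mark matches on either strand to an ETS motif (GAGGAAG), an AP-1 motif (TGANTCA), a C/EBP motif (TTGCNNAA), an NF-kB motif or a TATA motif (TATAAN), which can overlap one another.
Ccl3 promoter, chr11:83649379-83649628, minus strand: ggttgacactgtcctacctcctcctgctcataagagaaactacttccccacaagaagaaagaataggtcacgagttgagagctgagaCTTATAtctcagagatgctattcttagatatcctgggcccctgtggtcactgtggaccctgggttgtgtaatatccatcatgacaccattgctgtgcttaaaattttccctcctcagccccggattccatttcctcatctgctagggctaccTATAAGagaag
Ccl6 promoter, chr11:83593088-83593337, minus strand: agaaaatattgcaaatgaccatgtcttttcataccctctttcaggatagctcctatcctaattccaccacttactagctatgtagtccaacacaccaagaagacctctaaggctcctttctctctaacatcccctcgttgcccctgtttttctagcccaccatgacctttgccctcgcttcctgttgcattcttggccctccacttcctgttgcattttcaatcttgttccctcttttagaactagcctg
Ccl9 promoter, chr11:83578637-83578886, minus strand: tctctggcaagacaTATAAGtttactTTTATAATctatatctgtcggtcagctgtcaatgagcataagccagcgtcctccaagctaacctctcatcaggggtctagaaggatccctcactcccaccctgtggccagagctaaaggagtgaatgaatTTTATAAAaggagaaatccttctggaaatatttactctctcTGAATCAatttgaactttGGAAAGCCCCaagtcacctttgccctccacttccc
Ccl8 promoter, chr11:82114935-82115184, plus strand: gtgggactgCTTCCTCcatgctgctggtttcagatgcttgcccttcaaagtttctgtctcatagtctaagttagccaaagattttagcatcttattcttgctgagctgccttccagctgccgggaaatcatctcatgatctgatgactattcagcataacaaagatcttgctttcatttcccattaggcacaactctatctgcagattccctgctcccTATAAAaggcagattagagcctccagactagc
Ccl20 promoter, chr1:83116516-83116765, plus strand: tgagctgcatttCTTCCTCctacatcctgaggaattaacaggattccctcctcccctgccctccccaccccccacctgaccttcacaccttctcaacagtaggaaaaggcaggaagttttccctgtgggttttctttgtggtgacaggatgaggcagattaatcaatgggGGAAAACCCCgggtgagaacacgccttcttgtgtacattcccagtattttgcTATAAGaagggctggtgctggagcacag

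Among these windows, Ccl9 and Ccl20 held an NF-kB match, found in 7.25% of 32851 RefSeq windows of the same length, and Ccl9 also held the AP-1 match, found in 6.75%. An ETS match, found in 10.6% of windows, lay in those of Ccl8 and Ccl20, both more than 230 bases from the start, and a TATA match, found in 22.7%, in all but that of Ccl6. The C/EBP letters, found in 9.56% of windows, were in none of the 5. Ccl6 and Ccl9 shared a run of 13 bases close to their starts, gccctccacttcc, the longest run shared by any pair. A match is a description of letters and no evidence of binding.

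Ccl5, known as RANTES and made by activated T cells, macrophages and stromal cells, was low everywhere and ordered differently. It was at 0.716, 0.553 and 0.544 CPM in PDK4-IN, against 4.39, 4.25 and 3.83 CPM in Aged and 1.67, 1.49 and 1.59 CPM in Young. The groups did not overlap, and PDK4-IN lay below Young. Its log2 fold change was -2.77 for PDK4-IN over Aged (SE 0.24, adjusted p = 3.6e-06), 1.38 for Aged over Young (SE 0.19, adjusted p = 2.2e-04) and -1.41 for PDK4-IN over Young (SE 0.24, adjusted p = 0.00120), from 36 counts in PDK4-IN, 295 in Aged and 96 in Young. Of the 16 listed T and NK cell markers, none reached 1 CPM in PDK4-IN or Young and 2 did in Aged, with group sums of 2.26 ± 0.868, 4.21 ± 0.510 and 1.20 ± 0.0718 CPM in PDK4-IN, Aged and Young. Nkg7 of that list had no count in any library.

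The monocyte chemoattractants were the main CC chemokine transcripts in every group. Ccl2, the principal ligand of Ccr2, was at 993, 1048 and 1099 CPM in PDK4-IN, against 1190, 1176 and 1174 CPM in Aged and 856, 813 and 961 CPM in Young. The 3 groups did not overlap, but the gaps were small. Ccl2 was higher in Aged than in Young, with a log2 fold change of 0.42 and SE 0.06 (adjusted p = 3.5e-04). In TPM, which allow for length, it was at 2438 ± 20.6 in PDK4-IN, 3032 ± 11.2 in Aged and 2234 ± 80.8 in Young (SD, n = 3 each). The call of lower in PDK4-IN than in Aged, at a log2 fold change of -0.16 with SE 0.05 (adjusted p = 0.0170), was lost in 6 of 13 other settings. These were the fit on all 9 libraries (adjusted p = 0.0583), leaving out any 1 of the Aged libraries (adjusted p = 0.0597 to 0.0715) or PDK4-IN replicate 2 (adjusted p = 0.0632), and a rule that also required a 2-fold change. The call of higher in PDK4-IN than in Young (0.22, SE 0.07, adjusted p = 0.0236) was lost without Young replicate 1 or 2 or PDK4-IN replicate 2 or 3 (adjusted p = 0.0796 to 0.114) and in the fit on the 6 libraries of these groups (adjusted p = 0.0641).

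Ccl7, a monocyte chemoattractant that binds Ccr1, Ccr2 and Ccr3, was highest in PDK4-IN. It was at 735, 839 and 873 CPM in PDK4-IN, against 613, 575 and 614 CPM in Aged and 498, 452 and 580 CPM in Young. PDK4-IN lay above both other groups, whereas Aged and Young overlapped. The log2 fold change was 0.45 for PDK4-IN over Aged (SE 0.07, adjusted p = 2.6e-04) and 0.65 for PDK4-IN over Young (SE 0.09, adjusted p = 3.1e-04). For Aged over Young it was 0.22 (SE 0.08, adjusted p = 0.0506) and not called. It was called in 4 of 13 other settings: with library totals alone (adjusted p = 0.0395), with no filter on low counts (adjusted p = 0.00270), with a replicate block (adjusted p = 0.0212) and without Young replicate 3, where it was 0.32 (adjusted p = 3.3e-07).

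Ccl8, which lies in the same chromosomal cluster and in mouse acts on Ccr8, was a minor transcript. It was at 13.8, 14.2 and 17.7 CPM in PDK4-IN, against 11.1, 8.55 and 8.82 CPM in Aged and 11.5, 9.93 and 10.6 CPM in Young. PDK4-IN again lay above both, by log2 fold changes of 0.69 over Aged with SE 0.14 (adjusted p = 0.00158) and 0.48 over Young with SE 0.13 (adjusted p = 0.0181). The call over Young was lost without Young replicate 2 (adjusted p = 0.0795) or PDK4-IN replicate 3 (adjusted p = 0.0813). Aged and Young overlapped, and the difference of -0.18 (SE 0.12) was not called (adjusted p = 0.279).

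Ccl11, or eotaxin, had the largest rise of the members in PDK4-IN over Aged. It was at 87.8, 84.8 and 96.6 CPM in PDK4-IN, against 40.2, 36.0 and 37.0 CPM in Aged and 26.7, 30.1 and 37.6 CPM in Young. Each PDK4-IN library was above every other library, and the fitted change was 2.39-fold over Aged (1.26 on the log2 scale, SE 0.07, adjusted p = 1.1e-07) and 2.79-fold over Young (1.48, SE 0.11, adjusted p = 2.0e-06). Aged and Young overlapped at 0.25 (SE 0.11, adjusted p = 0.0999). Without Young replicate 3, the Young library with the most Ccl11, that difference was 0.39 and called (adjusted p = 1.4e-04), and with no filter on low counts it was 0.23 and called (adjusted p = 0.0316).

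Ccl20 was the 1 member called lower in Aged than in Young. It was at 36.9, 38.6 and 43.4 CPM in PDK4-IN, against 23.6, 23.4 and 21.9 CPM in Aged and 79.2, 70.1 and 82.1 CPM in Young, with no overlap. It was 3.39-fold lower in Aged than in Young, a log2 fold change of -1.76 with SE 0.08 (adjusted p = 2.2e-08). For PDK4-IN the log2 fold change was 0.80 over Aged with SE 0.08 (adjusted p = 1.7e-05) and -0.99 over Young with SE 0.08 (adjusted p = 5.6e-06), so PDK4-IN lay between the other groups.

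**Figure D2:**
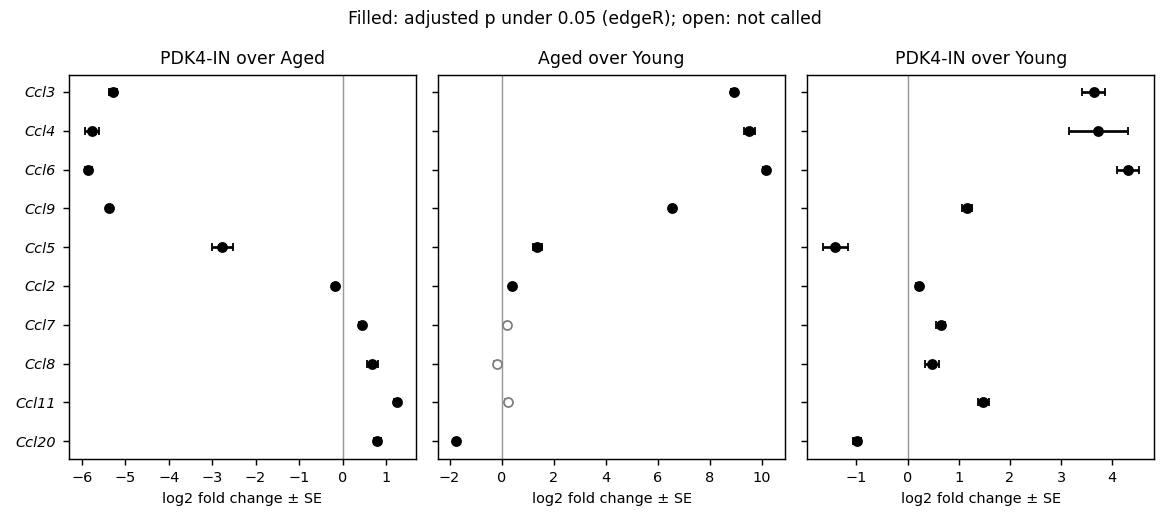
Log2 fold change with its standard error for each CC chemokine in the 3 comparisons, each panel with its own horizontal scale; filled points had an adjusted p under 0.05 in edgeR and open points did not. The open points are Ccl7, Ccl8 and Ccl11 for Aged over Young, and Ccl5 and Ccl20 lie below 0 for PDK4-IN over Young.

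Of 13 tested fibroblast markers, 6 rose (46.2%) and 3 fell (23.1%) with PDK4-IN over Aged, where 23.9% of all tested genes rose and 25.7% fell, and the median log2 fold change was 0.19. With Aged over Young 3 rose (23.1%) and 8 fell (61.5%), where 21.4% of all genes rose and 19% fell, and the median was -0.46. The markers of smooth muscle and pericytes summed to 574 ± 2.88 CPM in PDK4-IN, 551 ± 6.68 CPM in Aged and 2228 ± 77.5 CPM in Young, and 9 of 11 were called lower in Aged than in Young. Pdgfra, a receptor of fibroblasts, was at 122 ± 10.5 CPM in PDK4-IN, 153 ± 1.23 CPM in Aged and 139 ± 7.24 CPM in Young. The summed fibroblast list was at 14106 ± 658 CPM in PDK4-IN, 12452 ± 79.1 CPM in Aged and 15825 ± 1214 CPM in Young. It ran from 12363 to 16560 CPM over the 9 libraries, and every PDK4-IN library lay above every Aged library. CPM are shares of a library, and macrophage markers made up a larger share in Aged than in PDK4-IN. The part of this, and of the smooth muscle markers, in the higher level of Ccl7, Ccl8, Ccl11 and Ccl20 in PDK4-IN than in Aged was not tested. Relative to the summed macrophage markers, the ratio of PDK4-IN to Aged was 29.2 ± 1.11 for Ccl2, 44.6 ± 2.25 for Ccl7, 52.8 ± 10.1 for Ccl8, 56.8 ± 4.58 for Ccl20, 78.4 ± 8.01 for Ccl11 and 4.83 ± 1.16 for Ccl5. These ratios are large because the marker sum was 32.9 times lower in PDK4-IN, and Ccl2 and Ccl5 were themselves lower there. They also depended on the marker: Ccl2 and Ccl5 had 58.2 and 9.56 by Adgre1 alone, and 15.5 and 2.54 by Csf1r alone.

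**Figure D3:**
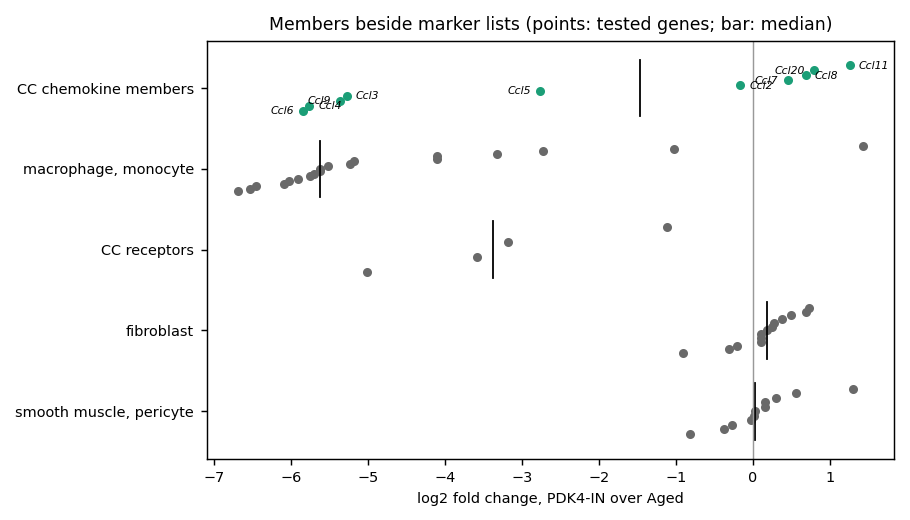
Log2 fold change of PDK4-IN over Aged for each CC chemokine (top row, named) and for the tested genes of 4 other lists; each point is a gene and each vertical bar the median of its list. Ccl3, Ccl4, Ccl6 and Ccl9 lie between -5.85 and -5.28, beside the macrophage and monocyte median of -5.62, and the other members lie nearer the fibroblast median of 0.19, with Ccl5 between at -2.77.

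Between genes, levels were compared as TPM, the deposited abundance that allows for transcript length. Ccl2 ranked first and Ccl7 second in all 3 groups, at 2438 ± 20.6 and 1957 ± 67.5 TPM in PDK4-IN, 3032 ± 11.2 and 1589 ± 52.0 TPM in Aged, and 2234 ± 80.8 and 1339 ± 103 TPM in Young. The next rank was held by Ccl11 in PDK4-IN at 141 ± 7.74 TPM, Ccl6 in Aged at 488 ± 17.9 TPM and Ccl20 in Young at 192 ± 12.3 TPM. Neighbours in rank whose libraries overlapped were Ccl3 with Ccl6 and Ccl6 with Ccl9 in PDK4-IN, Ccl20 with Ccl8 in Aged, and Ccl8 with Ccl11 and Ccl6 with Ccl4 in Young. Ccl4 was the lowest member in PDK4-IN and Young, at 1.70 ± 0.660 and 0.113 ± 0.0981 TPM, and Ccl5 in Aged at 21.9 ± 1.22 TPM.

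Together the members summed to 2025 ± 134 CPM in PDK4-IN, 2715 ± 38.3 CPM in Aged and 1511 ± 151 CPM in Young. Ccl2 and Ccl7 made up 92.8% ± 0.350 of the summed TPM in PDK4-IN, 75.7% ± 0.468 in Aged and 91.7% ± 0.231 in Young (SD, n = 3 each). Ccl3, Ccl4, Ccl6 and Ccl9, a set formed after their values were seen, made up 0.555% ± 0.0216 in PDK4-IN, 21.1% ± 0.395 in Aged and 0.142% ± 0.0387 in Young. Their summed level was 17.9 ± 1.51 CPM in PDK4-IN, 860 ± 8.70 CPM in Aged and 3.51 ± 0.175 CPM in Young, so most of the larger total in Aged came from these genes.

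**Figure D4:**
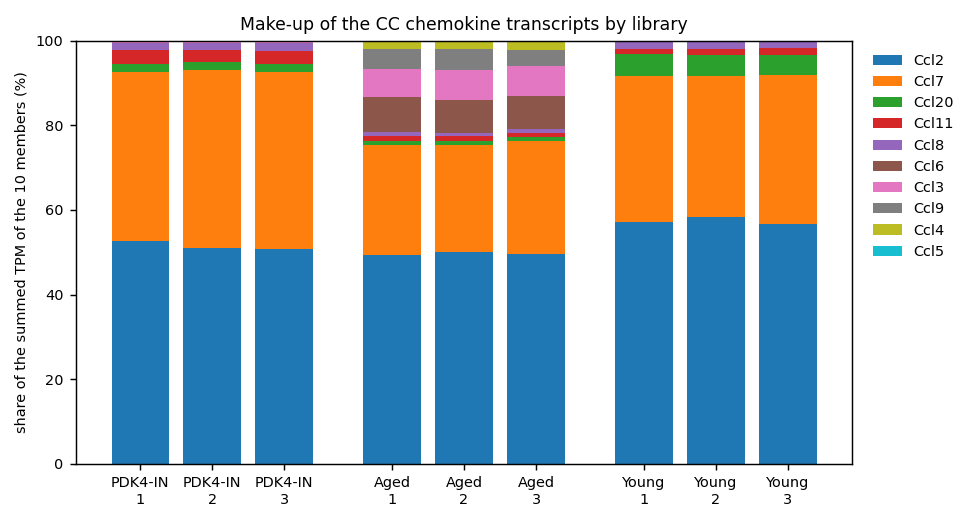
Share of each CC chemokine in the summed TPM of the 10 members (%), 1 stacked bar per library, with PDK4-IN, Aged and Young from left to right. Ccl2 and Ccl7 fill 92.5% to 93.2% of the PDK4-IN bars, 75.4% to 76.2% of the Aged bars and 91.6% to 92.0% of the Young bars.

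On the chromosomes, Ccl20 stood alone on chromosome 1 and the other 9 members lay on chromosome 11 in 2 stretches of neighbouring genes, by the RefSeq order of build GRCm38.p6. Ccl2, Ccl7, Ccl11 and Ccl8 formed the first stretch, with 1 further protein-coding gene between Ccl11 and Ccl8, and Ccl5, Ccl9, Ccl6, Ccl3 and Ccl4 the second, with 26 protein-coding genes between the stretches. All 5 members of the second stretch were called higher in Aged than in Young, as were 21.4% of all tested genes. They were also called lower in PDK4-IN than in Aged, as were 25.7% of all tested genes. Of the 4 members of the first, Ccl2 alone was called between Aged and Young. The other 3 were called higher in PDK4-IN than in Aged, as were 23.9% of all tested genes. The gene between Ccl11 and Ccl8, Ccl12, was not a member and was called in the directions of the second stretch. It was tested only through its Aged level, as given below. The longest exact run shared by any pair of members' transcripts in GENCODE M21 was 25 bases, between Ccl6 and Ccl9, where the reads were 150 bases long. RefSeq places a Ccl4 model over Ccl3 and E230016K23Rik over Ccl6 on the opposite strand, and the sources used here describe strand-specific libraries for human cell lines of the study, without saying whether these libraries were made or counted so. E230016K23Rik was at 0.235 ± 0.109 CPM in PDK4-IN, 0.825 ± 0.0953 CPM in Aged and 0.395 ± 0.0515 CPM in Young.

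Of the 14 other CC ligands looked up, 4 were tested and edgeR called 1, Ccl12. Ccl12, a mouse ligand of Ccr2 that lies between Ccl11 and Ccl8, was at 0.460, 0.151 and 0.297 CPM in PDK4-IN, against 8.44, 8.20 and 7.17 CPM in Aged and 0.0505, 0.0928 and 0 CPM in Young. Its log2 fold change for PDK4-IN over Aged was -4.69 with SE 0.26 (adjusted p = 9.9e-08), and its 3 counts in Young gave a ratio of Aged to Young of 162 (counting interval 55.1 to 788, adjusted p = 6.9e-08) and of PDK4-IN to Young of 6.11 (interval 1.78 to 32.4, adjusted p = 0.0203). Ccl12 had no PDK4-IN or Young library at the filter's cutoff and was tested only through its Aged level, so it had to differ from Aged. Its neighbours Ccl11 and Ccl8 were not called between Aged and Young, and the difference from them was not tested. Ccl22, with 4 counts in PDK4-IN, 40 in Aged and 1 in Young, did not pass the filter. DESeq2, run without that filter, called it lower in PDK4-IN than in Aged (adjusted p = 0.0155) and higher in Aged than in Young (adjusted p = 0.00286). Ccl17, Ccl21b, Ccl21d and Ccl26 had no count in any library.

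The receptors for these ligands were mostly highest in Aged. Of 5 receptors tested between Aged and Young all were higher in Aged, where 21.4% of all tested genes were called higher. Of 4 tested between PDK4-IN and Aged 3 were lower in PDK4-IN, where 25.7% of all tested genes were called lower. The receptor counts were largely set by the filter: Ccr3, Ccr9 and Ccr10 had no Young library at its cutoff and Ccrl2 had 1. Ccr3 and Ccrl2 also had no PDK4-IN library at it. Ccr1 reached the cutoff in all 9 libraries. DESeq2 called 4 receptors higher in Aged than in Young, Ccr1, Ccr3, Ccrl2 and Ccr7, and did not call Ccr9 or Ccr10. Ccr7, which did not pass the filter, had 9 counts in PDK4-IN, 33 in Aged and 2 in Young (adjusted p = 0.0163 in DESeq2 for Aged over Young). None of 4 was called in edgeR between PDK4-IN and Young, where 0 had an unadjusted p under 0.05 and DESeq2 called 0. Ccr1, which binds Ccl3, Ccl5, Ccl6, Ccl7 and Ccl9, was at 2.83 ± 0.294 CPM in PDK4-IN, 34.2 ± 1.56 CPM in Aged and 2.07 ± 0.949 CPM in Young, and differed by -3.58 on the log2 scale between PDK4-IN and Aged with SE 0.10 (adjusted p = 2.0e-10). Ccrl2, a receptor that presents chemerin and does not signal, was at 0.403 ± 0.0923 CPM in PDK4-IN, 13.2 ± 1.25 CPM in Aged and 0.348 ± 0.224 CPM in Young.

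Ccr3, the receptor for Ccl11, was at 0.318 ± 0.0293 CPM in PDK4-IN, 2.94 ± 0.250 CPM in Aged and 0.131 ± 0.126 CPM in Young, and its log2 fold change for PDK4-IN over Aged was -3.18 with SE 0.29 (adjusted p = 5.7e-06). Thus Ccl11 was highest in PDK4-IN and Ccr3 in Aged. Ccr2, the receptor for the most abundant members, Ccl2 and Ccl7, had 3 counts in PDK4-IN, 18 in Aged and 2 in Young, too few to be tested, and Ccr6, the receptor for Ccl20, had 3, 9 and 1 counts in PDK4-IN, Aged and Young. Ccr8, the receptor for mouse Ccl8, had 2 counts in PDK4-IN and none in Aged or Young. The markers of eosinophils and mast cells, 11 genes, summed to 2.60 ± 0.182 CPM in PDK4-IN, 5.26 ± 0.104 CPM in Aged and 1.72 ± 0.478 CPM in Young.

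**Figure D5:**
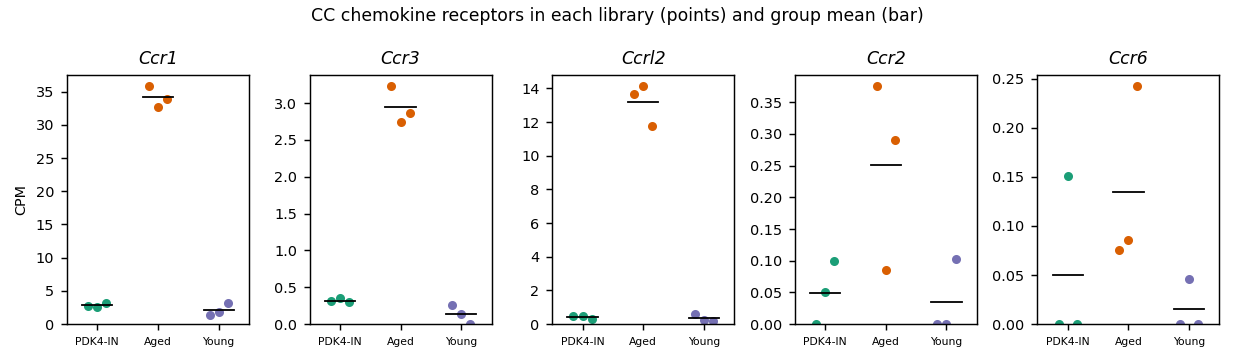
Level of 5 CC chemokine receptors (CPM, linear axis from 0, a separate scale in each panel) in every library, with PDK4-IN, Aged and Young from left to right; points are libraries and bars are means of 3. Ccr1, Ccr3 and Ccrl2 were highest in the 3 Aged libraries, while Ccr2 and Ccr6 stayed under 0.4 CPM throughout.

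Signalling genes behind the receptors moved in the same libraries. Of 27 tested, 20 rose and none fell with Aged over Young, 20 fell and none rose with PDK4-IN over Aged, and 8 rose and 3 fell with PDK4-IN over Young. Over all tested genes, 21.4% rose and 19% fell in the first comparison, and 23.9% rose and 25.7% fell in the second. Of the 20 signalling genes, 6 had no Young library at the filter's cutoff in the first comparison and 4 no PDK4-IN library in the second. These had to differ. Of the 11 called between PDK4-IN and Young, 3 had no Young library at the cutoff, DESeq2 called 6 higher and 3 lower, and 13.3% of all tested genes were called higher and 15.7% lower. Where edgeR called none, 1 signalling gene had an unadjusted p under 0.05 as lower in Aged and 0 as higher in PDK4-IN than in Aged, and DESeq2 called 0 in both cases. Rac2, a small GTPase of blood cells, was at 2.18 ± 0.509 CPM in PDK4-IN, 120 ± 2.05 CPM in Aged and 0.115 ± 0.0561 CPM in Young, and Vav1, an exchange factor of blood cells, at 1.14 ± 0.218 CPM in PDK4-IN, 51.6 ± 0.806 CPM in Aged and 0.127 ± 0.131 CPM in Young. Dock2, Pik3r5 and Pik3cg, known from leukocytes, had log2 fold changes of -3.85, -3.35 and -4.94 for PDK4-IN over Aged. Gnb1 and Rac1, found in most cells, had 0.07 and 0.11 and were among the 7 genes not called. Arrb1, Gng2, Grk2 and Tiam1 were among those called lower, the first 3 by 4.07-, 1.32- and 1.31-fold in mean CPM.

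Among 9 genes that control chemokine mRNA stability, 4 rose and 1 fell with Aged over Young, 5 fell with PDK4-IN over Aged, and 1 rose and 3 fell with PDK4-IN over Young. Of all tested genes, 21.4% rose and 19% fell in the first comparison, 25.7% fell in the second, and 13.3% rose and 15.7% fell in the last. DESeq2 called 3 higher in Aged than in Young. Between PDK4-IN and Aged, edgeR and DESeq2 called 0 higher, and 0 had an unadjusted p under 0.05 in that direction. Zfp36, the gene of tristetraprolin, which destabilises messages with AU-rich elements, was at 22.0 ± 1.85 CPM in PDK4-IN, 38.5 ± 1.27 CPM in Aged and 30.4 ± 1.56 CPM in Young. Its log2 fold change was -0.80 for PDK4-IN over Aged (SE 0.08, adjusted p = 9.3e-06) and -0.50 for PDK4-IN over Young (SE 0.08, adjusted p = 6.0e-04). Zc3h12a, the gene of the RNase Regnase-1, had -0.49 for PDK4-IN over Aged (SE 0.05, adjusted p = 2.7e-05) and 0.56 for Aged over Young (SE 0.06, adjusted p = 1.7e-05).

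The genes most like each member were sought by Pearson's correlation of log2 CPM across the 9 libraries. It is a description with no test, since the libraries fall into 3 groups by age and treatment. Ccl3 was most like Cd36, Laptm5 and Rac2, Ccl4 most like Arap3, C1qc and Lrmp, Ccl6 most like Ucp2, Marco and Lyz2, and Ccl9 most like Plekha2, Fabp5 and Itgb2, all at 0.998 to 0.999. Laptm5, C1qc, Marco and Lyz2 are on the macrophage marker list. Ccl11 was most like Cebpd, Ormdl3 and Ptx3 (0.991 to 0.995) and Ccl20 most like F3, Prss23 and Cxcl14 (0.991 to 0.995). Ccl5 was most like Hk2, Rad21 and Pilra (0.991 to 0.993), Ccl7 most like Rras, Ypel3 and Acadl (0.990 to 0.992) and Ccl2 most like Card19, U90926 and Uchl1 (0.985 to 0.989). Ccl8 had the weakest likeness of the members, to Gfod2, Hexa and Scp2 (0.960 to 0.962).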

How the data were processed

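Bulk RNA sequencing of 9 libraries was analysed. The authors deposited expected counts, which are estimated counts per gene and not normalised, and TPM, in 2 tables, and the Aged columns were the same in both. The processing notes name Bowtie 0.12.2 and build GRCm39, and the study's methods name RSEM for human cell lines, without saying whether it was used here. Deposited fold changes, p-values, significance marks and group means were not used. Sheet names speak of bleomycin and PCC1, so groups rest on column names and labels. Genes without a name held 0.0326% to 0.0396% of counts. After rounding, expected counts entered the quasi-likelihood test of edgeR 4.0.16 (R 4.3.3) with filterByExpr and TMM, on 6 libraries per comparison, or on all 9 for PDK4-IN over Young. CPM used library totals without TMM. DESeq2 1.42.0, other scalings, no filter, a replicate block and leaving out each library were alternatives. In simulated Aged over Young data of 15860 genes, edgeR recovered 100% of changes of 1 on the log2 scale. For PDK4-IN over Aged, edgeR recovered 99% and DESeq2 96%. Changes were planted only in well-counted genes, with the same spread for every gene and library, so recovery at low counts was not tested. The members, the 20 gene lists and the rule for named genes (all members, up to 4 called genes per related list and direction, fixed markers, the 3 most alike genes) were chosen with earlier results of these data known. Rac1 and Gnb1 as uncalled genes, and Arrb1, Gng2, Grk2 and Tiam1 as called genes, were named after their values were seen. So were Abca3, Cav1, Hopx, Ccl22, Ccr2, Ccr6, Ccr7, Ccr8 and Ccr10. A further receptor is not reported here. No pair of libraries within a group agreed to within sampling noise.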

Additional observations from a re-analysis of the deposited data

How the results depend on the processing

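Members were refitted in 389 alternatives in all. No log2 fold change turned its direction, 362 kept their call, 21 lost it and 6 gained it, and outside the rule on 2-fold changes these were calls of Ccl2, Ccl7, Ccl8 and Ccl11, each given above. With at least a 2-fold change required beside the adjusted p, 1 member was higher in PDK4-IN than in Aged, and 5 were higher and 1 lower in PDK4-IN than in Young. That rule called 1776 genes for Aged over Young, 1452 for PDK4-IN over Aged and 885 for PDK4-IN over Young, in place of 6511, 8077 and 4796. Leaving out 1 library gave 6 to 8 members higher and 1 lower for Aged over Young, 4 higher and 5 to 6 lower for PDK4-IN over Aged, and 6 to 8 higher and 2 lower for PDK4-IN over Young, and 4854 to 7740, 6549 to 9498 and 3100 to 6176 genes called in these comparisons. The summed members were 1.80 times higher in Aged than in Young by CPM, 1.72 to 1.90 without 1 library and 1.57 by deposited TPM, a unit that allows for length. Counts of calls in the other gene lists moved by over 1.5 times in 141 of 1482 alternatives.

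Same-numbered libraries did not all deviate together, and the numbers were not taken as pairs: the correlations were -0.039, 0.054 and 0.017 for Aged with Young, -0.039, 0.017 and 0.039 for PDK4-IN with Aged, and 0.461, -0.139 and 0.568 for PDK4-IN with Young, where those of different numbers ran from -0.632 to 0.449. With a replicate block, 7 members were higher and 1 lower for Aged over Young, 4 higher and 6 lower for PDK4-IN over Aged and 8 higher and 2 lower for PDK4-IN over Young, and 6081, 7605 and 5371 genes were called. Among members the block moved only the call of Ccl7 between Aged and Young (adjusted p = 0.0212). Depth limits Ccl4 in Young, where the group held 2 counts.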
